A study of Mus musculus with 2 samples.

Results

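Titin is the giant protein of the striated muscle sarcomere, and its gene Ttn (ENSMUSG00000051747.10) is described here in adult mouse heart at the level of the gene, of its annotated transcripts and of the splice junctions inside it. Ttn was 1 of 43346 gene identifiers in the deposited tables, and all of its 25 annotated transcripts were present. A pooled list of 362268 splice junctions held 454 on the Ttn strand with both ends inside the gene's mm9 locus on chromosome 2. The gene and its transcripts were found by identifier, and the junctions by position and strand, so no measured value chose them. The material was heart tissue of adult C57BL/6J mice, a common inbred strain, taken at 8 weeks, with animals of mixed sex pooled according to the labels. There was 1 group of 2 libraries, called biological replicates in the labels, made from poly(A)+ RNA of more than 200 nucleotides and read as stranded pairs of 76 nucleotides. No treatment, mutant or second tissue was part of the series, so every result below is a level, a share or a ratio between the 2 libraries, with no p-value.

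The libraries held 62912053 estimated counts in replicate 2 and 57464573 in replicate 1. The labels gave them separate biosamples but 1 shared donor record, so the spread between them may be partly technical. Xist, the RNA of the inactive X chromosome, had 13 counts in replicate 2, against 13725 in replicate 1. The sum over 4 Y-linked genes was 2916 counts in replicate 2, against 0 in replicate 1, which goes against a pool of both sexes in each library. In the ratios between the libraries below, sex therefore cannot be told apart from any other difference between them. Cardiomyocyte markers were abundant in both libraries, with a summed level of 28893 TPM in replicate 2, against 23621 TPM in replicate 1 over 7 genes. TPM is a level per unit of transcript length, scaled to the same total in each library. Markers of airway and lung summed to 2535 TPM in replicate 2, against 0.88 TPM in replicate 1. Of these 7 of 7 were at least 2-fold higher in replicate 2, and 3 of them had 0 counts in replicate 1. Red cell markers summed to 94903 TPM in replicate 2, against 7592 TPM in replicate 1, and 5 of 5 were at least 2-fold higher in replicate 2. By the same rule, given below, 3.95% of 16145 tested genes were higher in replicate 2. The 12 markers of skeletal muscle, another tissue rich in titin, summed to 68.3 TPM in replicate 2, against 27.1 TPM in replicate 1, and most of that was Myl1, a myosin light chain. The fast myosin heavy chains Myh1, Myh2 and Myh4 had at most 5 counts in either library. Other members were detected, such as Atp2a1 with 368 and 177 counts in replicates 2 and 1 and Tnni2 with 141 and 70. Of 6 members tested, Myl1 alone reached 2-fold, higher in replicate 2, and 2 had lower scaled counts in replicate 2.

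A titin molecule reaches from the Z-disc to the M-band of the sarcomere. Its I-band part works as a molecular spring, made of immunoglobulin domains in tandem, a PEVK segment and, in heart, a unique sequence called N2B, while its A-band part runs along the myosin filament. Splicing sets the length of the spring: the cardiac N2B form leaves out most of the I-band exons, the cardiac N2BA form keeps both the N2B element and a longer spring, the skeletal N2A form lacks the N2B element, and the short novex-3 form ends within the I-band part. RBM20, an RNA-binding protein of muscle nuclei, represses the inclusion of I-band exons.

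The annotation places Ttn on the minus strand of chromosome 2, at chr2:76703980-76982547 in GRCm38, a span of 278568 nucleotides. Its 4 transcripts of at least 50000 nucleotides differ mainly in 1 stretch. Ttn-201 (81843 nucleotides, 192 exons) has the layout of the N2B form: it holds a 2646-nucleotide exon at chr2:76907308-76909953, the N2B exon, as its exon 45, and then joins exon 46 to exon 47 over an intron of 87437 nucleotides at chr2:76818817-76906253. Within that intron Ttn-203 (106824 nucleotides, 347 exons) has 154 further exons, of which 151 are a multiple of 3 nucleotides long. Ttn-204 (100404 nucleotides, 312 exons) and Ttn-205 (101674 nucleotides, 313 exons) have 121 exons there and lack the N2B exon, as the skeletal N2A form does. Ttn-202 (16891 nucleotides, 45 exons) shares its first 44 exons with Ttn-201 and then ends in a 6520-nucleotide exon of its own at chr2:76913944-76920463, the layout of novex-3.

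The sequences across these joins show which exons the spliced reads below connect. Each is the last 30 nucleotides of the upstream exon in lower case and the first 30 of the downstream exon in capitals, read 5′ to 3′ from the GENCODE M21 transcripts on GRCm38. The first set leaves exon 44 of Ttn-201, where the choice falls between the N2B exon, the last exon of the short form and, in Ttn-204, the exon after the N2B exon.
N2B exon entered (Ttn-201 exon 44 to 45): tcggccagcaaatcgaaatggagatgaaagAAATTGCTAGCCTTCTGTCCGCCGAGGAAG
Short form (Ttn-202 exon 44 to 45): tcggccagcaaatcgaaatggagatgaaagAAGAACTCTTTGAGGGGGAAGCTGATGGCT
N2B exon passed (Ttn-204 exon 44 to 45): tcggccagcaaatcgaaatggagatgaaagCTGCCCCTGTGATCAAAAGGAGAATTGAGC
The second set leaves exon 46 of Ttn-201, a 279-nucleotide exon that is exon 47 of Ttn-203 and exon 45 of Ttn-204, where the choice is to pass or to enter the long spring. The last of these joins is not in the annotation, and its sequence was put together from the annotated ends of Ttn-203 exons 47 and 87.
Spring exons passed (Ttn-201 exon 46 to 47): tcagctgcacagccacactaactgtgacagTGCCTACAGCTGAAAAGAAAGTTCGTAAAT
Spring entered at its first exon (Ttn-204 exon 45 to 46): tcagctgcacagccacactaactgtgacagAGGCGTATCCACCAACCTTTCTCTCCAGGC
Spring entered midway (Ttn-203 exon 47 to 87): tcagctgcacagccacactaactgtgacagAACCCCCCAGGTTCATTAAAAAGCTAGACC

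Ttn stood at 47.5 TPM in replicate 2, against 63.4 TPM in replicate 1, a mean of 55.4 ± 11.2 TPM (SD, n = 2). That is the place of rank 1011 of 43346 genes by mean TPM, 1289 in replicate 2 and 798 in replicate 1. By estimated counts, which grow with transcript length, it was among the most read genes of the tissue, with 168384 counts and rank 35 in replicate 2 and 212797 counts and rank 24 in replicate 1. It took 0.272% of all counts on genes in replicate 2 and 0.377% in replicate 1, but only 0.00484% and 0.00645% of TPM. Its mean effective length, 53964 nucleotides in replicate 2 and 53804 in replicate 1, was the longest of any gene with at least 1 TPM in both libraries, ahead of Tnrc6b and Ryr2.

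The neighbours of Ttn in the ranking by mean TPM were Smyd2 (55.6 TPM), Slc9a3r2 and Lrrc14b (both 55.5 TPM) just above it, and Pgap2, Stard10 and Hacd1 (all 55.3 TPM) just below it. None of the 6 differed from Ttn by more than 0.175 TPM, far less than the SD of 11.2 TPM for Ttn, so their order carries no information. Smyd2 encodes a methyltransferase that is itself a known partner of titin in the I-band. TPM is a share of a total in which mitochondrial transcripts weigh heavily: with mitochondrial genes left out, Ttn stood at 70.3 TPM in replicate 2, against 122 TPM in replicate 1.

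Between the libraries the log2 ratio of replicate 2 over replicate 1 was −0.58 for Ttn, so that its scaled count was 1.5-fold higher in replicate 1. The ratio was taken between TMM-scaled counts (CPM, counts divided by library size) plus 0.5, and a gene counted as different at a fold of at least 2, which Ttn did not reach. Of 16145 genes tested, 5.08% reached that fold, 3.95% with higher values in replicate 2 and 1.13% with lower values, and 9.15% had a ratio below that of Ttn. Long genes as a class had lower ratios: the median was 0.17 for the 2053 expressed genes under 1000 nucleotides of effective length, −0.07 for the 4217 between 2000 and 4000, and −0.37 for the 208 between 8000 and 16000. Whether transcript length, sex, or the airway and red cell transcripts of replicate 2 had a part in the ratio of Ttn was not tested. The 7 cardiomyocyte markers had a median log2 ratio of 0.04, with values from −0.73 to 0.94 and 3 of 7 below 0. In tissue RNA of this kind, fewer cardiomyocytes and less Ttn RNA per cardiomyocyte cannot be told apart.

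Among the 25 transcripts, Ttn-201, with the N2B layout, held most of the signal in both libraries. It stood at 29.5 TPM in replicate 2, against 39.0 TPM in replicate 1, which was 62.0% and 61.6% of Ttn TPM, a mean of 61.8% ± 0.31 (SD, n = 2). The share differed by less than 1 percentage point between the libraries. Because counts weight a transcript by its length, Ttn-201 held 93.9% of the Ttn counts in replicate 2 and 93.5% in replicate 1.

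The 3 other long transcripts were low. Ttn-205 stood at 0.16 TPM in replicate 2, against 0.17 TPM in replicate 1, and Ttn-204 at 0.04 TPM in replicate 2, against 0.10 TPM in replicate 1. Ttn-203, the longest annotated form, stood at 0.01 TPM in replicate 2 and was listed at 0 TPM in replicate 1, with 80.9 counts in replicate 2 and 15.1 in replicate 1. Ttn-201 therefore made up 99.3% of the TPM of long transcripts in each library, and the 4 together held 62.5% of Ttn TPM in replicate 2 and 62.0% in replicate 1. The 99.3% compares annotated long forms only and does not measure N2B against N2BA molecules. Of the 4, only Ttn-203 has both the N2B exon and the spring exons that Ttn-201 leaves out. Fragments with such exons, like Ttn-218 below, are not counted in it.

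The remaining signal lay on shorter transcripts, of which 4 reached 1 TPM in both libraries. Ttn-215, a 2159-nucleotide fragment of the 5′ end with no annotated end, stood at 6.07 TPM in replicate 2, against 6.73 TPM in replicate 1, but at only 782 and 821 counts. Ttn-202, the short novex-3 layout, stood at 3.98 TPM in replicate 2, against 5.57 TPM in replicate 1. Set beside Ttn-201 alone, it made up 11.9% of the 2 in replicate 2 and 12.5% in replicate 1, a mean of 12.2% ± 0.42 (SD, n = 2). Ttn-207, a transcript of the 5′ end annotated as having a retained intron, stood at 1.15 TPM in replicate 2, against 2.37 TPM in replicate 1.

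Ttn-218 differed from these in its place in the gene. It is a 10229-nucleotide fragment of 51 exons with neither start nor end annotated, and 44 of its exons lie inside the stretch that Ttn-201 leaves out. It stood at 4.41 TPM in replicate 2, against 6.74 TPM in replicate 1, above the summed 0.21 and 0.27 TPM of Ttn-203, Ttn-204 and Ttn-205, the complete forms that run through that stretch. Ttn-211, another fragment with 133 exons there, stood at 0.24 TPM in replicate 2, against 0.44 TPM in replicate 1.

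**Figure D1:**
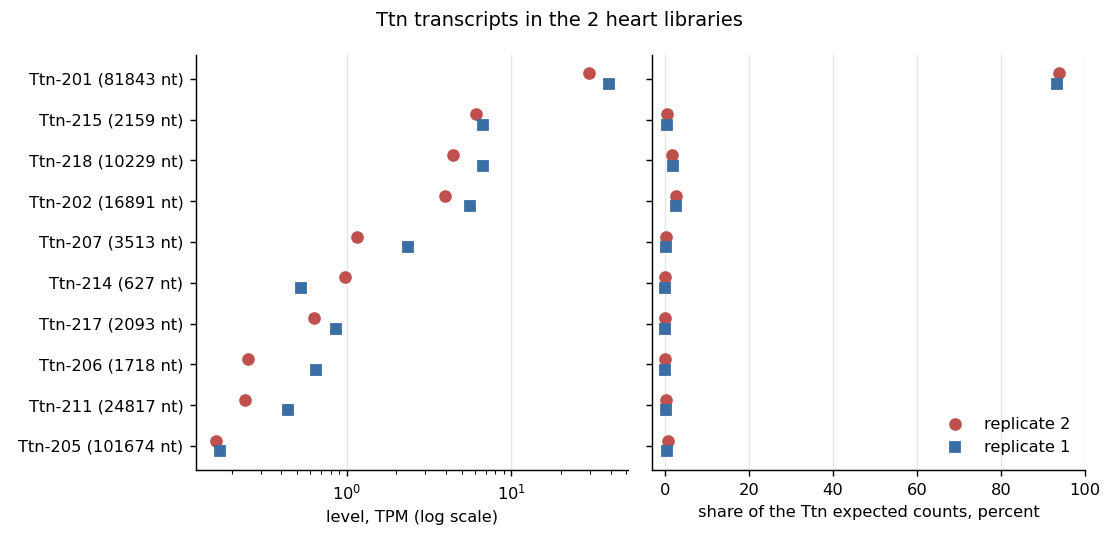
Levels in TPM (left, log scale) and shares of the Ttn estimated counts in percent (right) of the 10 Ttn transcripts of highest mean TPM, with replicate 2 as red circles and replicate 1 as blue squares. Ttn-201 stands apart in both measures, at 29.5 and 39.0 TPM and at 93.9% and 93.5% of counts.

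The other transcripts were low in both libraries. Ttn-214, Ttn-217 and Ttn-206 lay between 0.25 and 0.97 TPM in either library. Ttn-209, Ttn-219 and Ttn-222 lay at or under 0.08 TPM. A further 10 transcripts (Ttn-208, Ttn-210, Ttn-212, Ttn-213, Ttn-216, Ttn-220, Ttn-221, Ttn-223, Ttn-224 and Ttn-225) had 0 counts in both libraries, and all but Ttn-225 are fragments without an annotated start or end. Fragments that share every exon with a longer form can only be told from it by their ends, so the division of reads between them rests on the authors' estimation.

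The pooled junction list showed the splices themselves, on the mm9 build and with no library named. The 454 junctions carried 65406 reads, 0.187% of the reads in the list. Of these junctions 258 matched an annotated Ttn intron by the length of the intron and of a flanking exon, and they carried 98.8% of the reads. The 196 others carried 806 reads in all, and 117 of the 454 junctions rested on a single read. On the opposite strand the locus held 1 junction with 1 read. Gm13938, an annotated antisense gene inside Ttn at chr2:76722776-76786708 of GRCm38, had 0 counts in both libraries.

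Of the 185 introns that the 4 long transcripts share, 184 were seen, each with at least 14 reads and with a median of 187. The exception, the 114-nucleotide intron between exons 26 and 27 of Ttn-201, had a junction of the same length and 182 reads that disagreed with the exon lengths, and so was left unmatched. Ttn-201 as a whole had 188 of its 191 introns seen, against 249 of 346 for Ttn-203, 247 of 311 for Ttn-204 and 248 of 312 for Ttn-205. Besides the intron just named, Ttn-201 lacked the join of exons 10 and 11 and that of exons 186 and 187. The long forms differ in the length of exon 186, which has 5437 nucleotides in Ttn-201 and Ttn-203, 5459 in Ttn-204 and 5448 in Ttn-205, and no junction matched any of the 3 introns that follow it. Along Ttn-201 the median was 391 reads for introns in the first 10% of the mRNA. It lay between 119 and 206 for each further 10% up to 80% of the length, then at 492 and, in the last 10%, at 900. The part between 60% and 70% lies within a 17106-nucleotide exon and has no intron. The junction of most reads was the join of exons 190 and 191, with 5660 reads. Introns that are present in every long form thus differed by up to 404-fold in reads, and a read count on its own does not give the number of molecules.

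**Figure D2:**
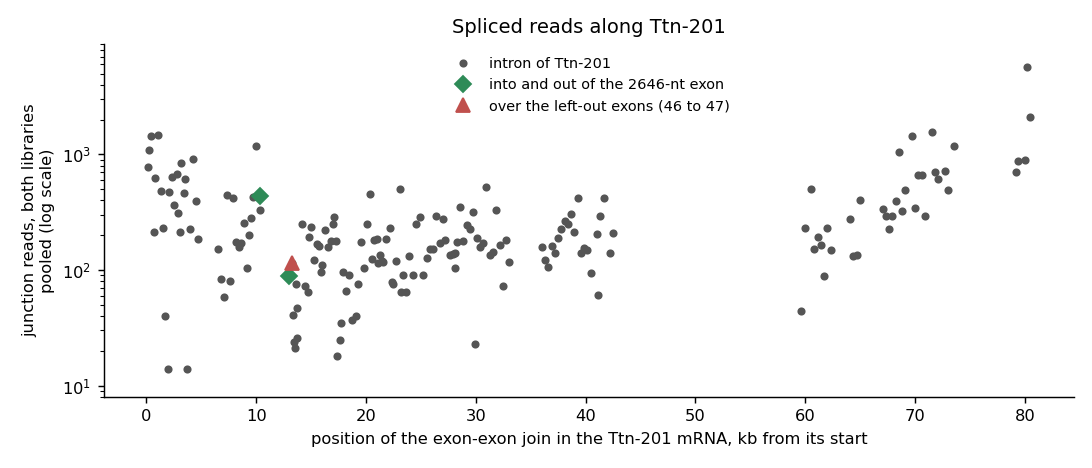
Reads of each Ttn-201 junction, pooled over both libraries, on a log scale, against the position of the join in the mRNA in kb from its start. Grey points are introns of Ttn-201, green diamonds the joins into and out of the N2B exon (433 and 89 reads) and the red triangle the join over the left-out exons (114 reads); the empty stretch on the right is the 17106-nucleotide exon.

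The N2B exon was part of nearly all spliced reads at its 5′ side. Of 461 reads leaving exon 44 of Ttn-201, 433 (93.9%, 95% exact interval 91.3 to 95.9) entered the N2B exon over the intron chr2:76748011-76759607 in mm9, as in the first sequence above. The last exon of the short form Ttn-202 took 25 reads (5.42%, interval 3.54 to 7.90), over chr2:76758521-76759607. At its 3′ side the N2B exon was joined to exon 46 by 89 reads. The join past the N2B exon that Ttn-204 uses had no read, which allows a share of up to 0.651%. All intervals and limits here cover counting error only, and reads made from copies of 1 molecule are not independent.

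At the next choice most reads passed the long spring, but a large minority entered it. Of 190 reads leaving exon 46 of Ttn-201, 114 (60.0%, interval 52.7 to 67.0) ran over the whole 87437-nucleotide intron to exon 47, at chr2:76656874-76744310 in mm9. The other 76 reads (40.0%, interval 33.0 to 47.3) entered the left-out stretch at 8 different places. The first exon of the stretch, used by Ttn-203, Ttn-204, Ttn-205 and Ttn-211, took 29 of them (15.3%, interval 10.5 to 21.2). A splice to exon 87 of Ttn-203, over the 24414-nucleotide intron chr2:76719897-76744310, took 32 (16.8%, interval 11.8 to 22.9) and is in none of the 25 annotated transcripts. Another splice, to exon 77 of Ttn-203, took 6 reads, and the 5 others had 3 reads or fewer each.

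At the far end of the stretch the picture was different. Of 115 reads that reached the exon after it (exon 47 of Ttn-201), 114 came from the 87437-nucleotide junction and 1 from inside the stretch (0.870%, interval 0.0220 to 4.75). Over all, 6 junctions with 1 read each led from inside the stretch to any site beyond it. In the other direction 10 junctions with 86 reads led into it from any site before it, 76 of those reads from exon 46.

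**Figure D3:**
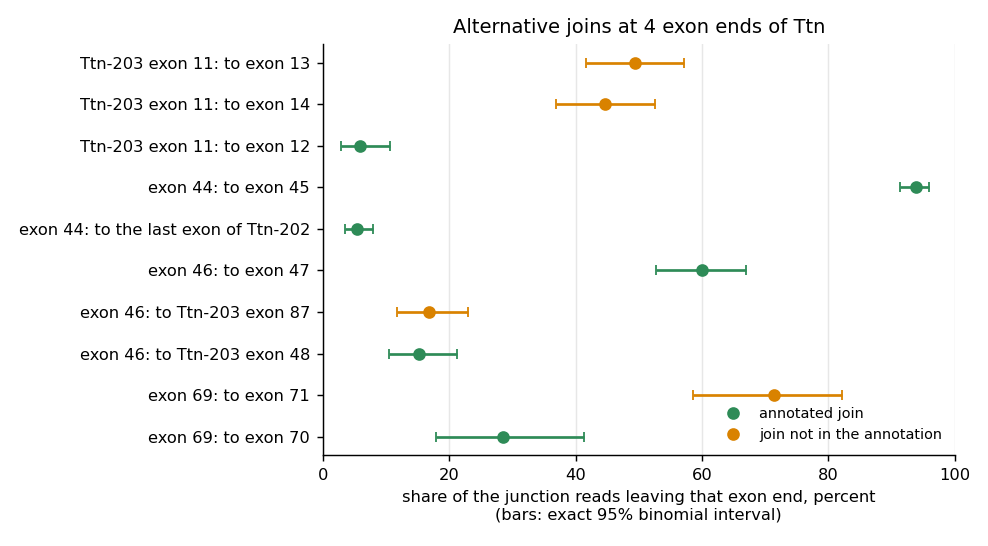
Shares, in percent, of the junction reads leaving 4 exon ends of Ttn that went to each partner with at least 10 reads, with exact 95% binomial intervals; exon numbers are those of Ttn-201 unless Ttn-203 is named. Green points are annotated joins and orange points joins that are in no annotated transcript, such as exon 46 to Ttn-203 exon 87 (16.8%).

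Inside the stretch the reads were concentrated on a middle segment. In equal steps of 20 introns of Ttn-204, the step from exon 85 to exon 105 carried 2872 of the 3482 reads, and all of its introns were seen. Of the 122 introns of Ttn-204 there, 61 were seen and 35 had at least 10 reads. The longest unbroken series of introns with at least 10 reads ran from exon 84 to exon 110 of Ttn-204, which are 27 exons of 5862 nucleotides in all, and its introns lay at chr2:76701733-76721966 in mm9. Its 26 joins had between 14 and 347 reads, with a median of 108, and carried 3224 of the reads. The bounds were set where a join had under 10 reads, so the low counts of the annotated joins at its edges, 7 reads into exon 84 and 5 out of exon 110, follow from that choice. The 39 introns before that segment had a median of 3 reads and 209 in all, and the 57 after it a median of 0 and 49 in all. Because the segment was picked by its own reads, part of this contrast also follows from the choice.

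From any site outside, 4 junctions with 44 reads led into the segment, 32 of them from exon 46, and 4 junctions with 10 reads led out of it. Along Ttn-203 the same rule gave exons 86 to 110 of that transcript, with the same reads leading in and 62 reads on 4 junctions leading out. Of these 62 reads 57 were the Ttn-204 join of exons 108 and 109. Exon 109 of Ttn-204 (54 nucleotides) ends at the same site as exon 111 of Ttn-203 (45 nucleotides) but starts further upstream. Those 57 reads thus entered the same exon at an earlier start, and did not pass it. Ttn-218, the fragment at 4.41 and 6.74 TPM in replicates 2 and 1, runs through the segment, and 48 of its 50 introns were seen, 37 of them with at least 10 reads. How the stretch is read across libraries could not be compared, because the list is pooled.

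**Figure D4:**
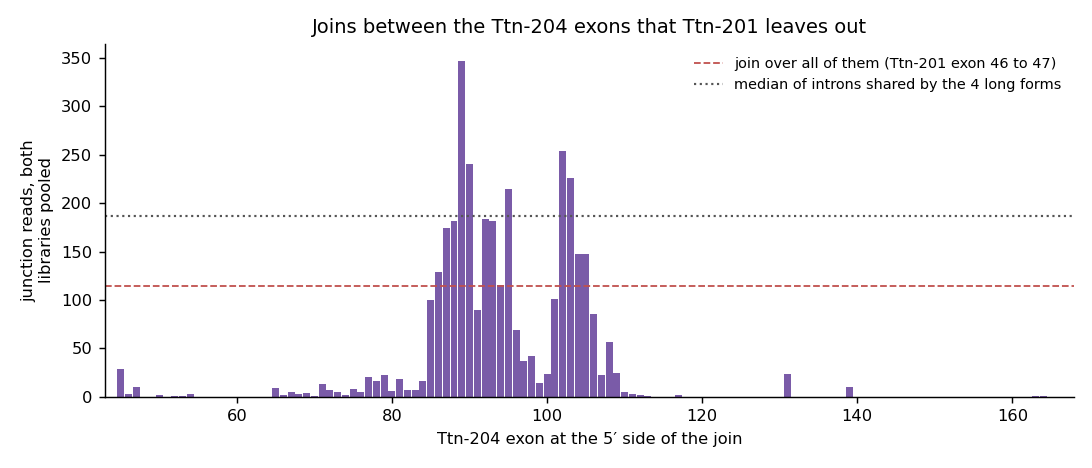
Reads, pooled over both libraries, of each join between the Ttn-204 exons that Ttn-201 leaves out, by the number of the exon at its 5′ side. The bars rise to 347 reads between exons 84 and 110 and stay at or under 29 reads elsewhere; the dashed line marks the 114 reads of the join over all of them, and the dotted line the median of 187 reads of introns shared by the 4 long transcripts.

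Another place of varied splicing lay near the 5′ end, between exons 10 and 14 of Ttn-203. In this part short exons of similar size encode Z-repeats that bind alpha-actinin in the Z-disc, while exon 14 is longer, at 294 nucleotides. From exon 11, a 138-nucleotide exon that Ttn-201 and Ttn-202 lack, 83 of 168 reads (49.4%, interval 41.6 to 57.2) went to exon 13 and 75 (44.6%, interval 37.0 to 52.5) to exon 14. Neither join is annotated, and the annotated join to exon 12 took 10 reads (5.95%, interval 2.89 to 10.7). The 2 unannotated joins read as follows.
Exon 12 left out (Ttn-203 exon 11 to 13): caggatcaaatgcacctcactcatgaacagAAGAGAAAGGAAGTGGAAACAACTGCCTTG
Exons 12 and 13 left out (Ttn-203 exon 11 to 14): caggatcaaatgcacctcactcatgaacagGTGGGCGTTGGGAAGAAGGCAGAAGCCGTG
From exon 10, 60 of 72 reads (83.3%, interval 72.7 to 91.1) went to exon 11 and 12 (16.7%, interval 8.92 to 27.3) past all 3 exons to exon 14.

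The join that Ttn-201, the leading transcript by TPM, makes at this place had no read. This join, from its exon 10 to its exon 11, leaves out exon 11 of Ttn-203 and had 0 of the 72 reads leaving exon 10, which allows up to 4.17%. Reads into and out of these exons were unequal: exon 13 of Ttn-203 was joined to exon 14 by 475 reads, but only 97 reads entered it, 83 from exon 11 and 14 from exon 12. Of all 563 reads that reached exon 14, those 475 were 84.4% (interval 81.1 to 87.3).

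Further along the mRNA, 1 exon was more often left out than used. Exon 70 of Ttn-201, of 267 nucleotides and present in all 4 long transcripts, was passed by 45 of the 63 reads leaving exon 69 (71.4%, interval 58.7 to 82.1), over chr2:76638638-76641349 in mm9. The joins into and out of it had 18 and 25 reads. The join past it, which no annotated transcript uses, reads as follows.
Exon 70 left out (Ttn-201 exon 69 to 71): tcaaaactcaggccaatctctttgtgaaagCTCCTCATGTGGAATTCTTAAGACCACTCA

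Near the M-band end, no read left out the exon next to last. Exon 191 of Ttn-201, a 303-nucleotide exon at chr2:76705670-76705972 in GRCm38, was entered by 5660 reads and left by 2094. No read joined exon 190 to exon 192 past it, which allows up to 0.0529% of the 5669 reads leaving exon 190.

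Over the whole locus 20 of the 454 junctions met a definition of exon skipping that needs no annotation: 2 other junctions, 1 sharing each end, lie inside it without overlapping. They carried 849 reads, 1.30% of all Ttn junction reads (interval 1.21 to 1.39). The 10 with most reads were the 8 joins given above that leave exon 44, exon 46, Ttn-203 exons 10 and 11 and exon 69, the 6-read join to Ttn-203 exon 77, and a join with 5 reads inside the left-out stretch. The definition counts the joins into the N2B exon (433 reads) and over the long spring (114 reads), which are the annotated Ttn-201 joins, because rarer exons lie within them.

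The genes that work with titin were read against the same background, in which 5.08% of tested genes differed 2-fold between the libraries. The first were the Z-disc partners, and 0 of 6 reached the fold. Tcap, the telethonin that caps the titin N-terminus, stood at 968 TPM in replicate 2, against 437 TPM in replicate 1 and lay just inside the limit, with a log2 ratio of 0.99. With total counts or with TPM in place of TMM scaling, 1 of the 6 reached it. Actn2, the alpha-actinin that binds the Z-repeats, Ldb3, Csrp3 and Myoz2 had mean levels between 323 and 468 TPM and log2 ratios between −0.14 and 0.49. Nebl, which encodes nebulette, was the lowest at 84.8 ± 5.95 TPM (SD, n = 2), with a log2 ratio of −0.85. By TPM Nebl differed less, at 80.6 TPM in replicate 2, against 89.0 TPM in replicate 1. Its effective length was 2010 nucleotides in replicate 2 and 2918 in replicate 1. The median of the list was 0.38, beside −0.00203 for all tested genes.

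Partners of the spring included the most abundant of the listed genes after Myh6. Fhl2, a LIM protein that binds the N2B element, stood at 983 TPM in replicate 2, against 1105 TPM in replicate 1, a mean of 18.8 times the level of Ttn. Cryab, a small heat shock protein that binds the spring, stood at 1348 TPM in replicate 2, against 657 TPM in replicate 1, with a log2 ratio of 0.88. Of 9 members tested 2 reached the fold, Hspb1, another small heat shock protein (log2 ratio 1.00), and Ankrd1, a stress-induced ankyrin repeat protein of the N2A element (1.02), both higher in replicate 2; Hspb1 lay on the limit at 2.00-fold. With TPM in place of TMM scaling, 3 of the 9 reached the fold. Ankrd23, S100a1, Smyd2, Fhl1 and Capn3 had log2 ratios between −0.34 and 0.45. Capn3, the calpain that binds N2A titin in skeletal muscle, was low at 1.21 ± 0.24 TPM, and Ankrd2, its skeletal ankyrin repeat neighbour, with 2 counts in replicate 2 against 1 in replicate 1, was not tested.

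Among the A-band and M-band partners 0 of 12 reached the fold, and the median log2 ratio was −0.09. Myh6, the adult cardiac myosin heavy chain, stood at 1685 TPM in replicate 2, against 1776 TPM in replicate 1, and Mybpc3, the cardiac myosin-binding protein C that sits on the A-band repeats of titin, at 731 TPM in replicate 2, against 619 TPM in replicate 1. The M-band proteins that tie titin to its neighbours differed in level: Myom2 averaged 149 ± 9.26 TPM, Myom1 74.7 ± 12.5 TPM, Obsl1 44.1 ± 3.42 TPM and Myom3 0.65 ± 0.13 TPM (SD, n = 2 each). The ubiquitin ligases and adaptors that meet titin near its kinase domain, Trim63, Trim54, Trim55, Nbr1 and Sqstm1, averaged between 37.3 and 92.4 TPM, and Trim54 had the largest log2 ratio of the list, 0.67.

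Of the 7 kinase and phosphatase genes whose products act on the spring 0 reached the fold, and their median log2 ratio was −0.35. Prkaca, the catalytic subunit of protein kinase A, was the highest, at 126 TPM in replicate 2, against 116 TPM in replicate 1. Ppp5c, a phosphatase that binds the N2B element, stood at 81.9 TPM in replicate 2, against 56.1 TPM in replicate 1. Mapk3 averaged 49.6 ± 12.1 TPM and Camk2d 45.1 ± 0.65 TPM (SD, n = 2 each). Prkca averaged 5.59 TPM and Prkg1, a kinase activated by cyclic GMP, 1.27 TPM.

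Regulators of splicing that act on titin or on muscle transcripts were all expressed. Rbm20, the repressor of I-band exons, stood at 73.0 TPM in replicate 2, against 50.4 TPM in replicate 1, but its scaled counts hardly differed, with a log2 ratio of 0.01. Rbm24, a muscle splicing factor, averaged 54.6 ± 6.44 TPM and Qk, the quaking RNA-binding protein, 52.8 ± 8.76 TPM, so that these 3 led the list (SD, n = 2 each). Mbnl1, Celf1, Rbfox2, Ptbp1, Mbnl2, Celf2, Srsf10, Khdrbs3, Rbfox1 and Ptbp2 averaged between 2.56 and 28.7 TPM. Ptbp1 and Ptbp2, polypyrimidine tract-binding proteins, stood at 21.7 ± 4.66 and 2.56 ± 0.38 TPM. Of the 13 genes 0 reached the fold, and the log2 ratios lay between −0.68 for Srsf10 and 0.48 for Ptbp1, with a median of −0.18.

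Most other long genes had, like Ttn, lower values in replicate 2. Of 13 listed, 12 had a log2 ratio below 0, with a median of −0.29, but 1 reached the fold: Xirp2, an actin-binding repeat protein, at 7.18 TPM in replicate 2, against 13.5 TPM in replicate 1 (−1.07). With total counts or with TPM in place of TMM scaling, 0 of the 13 reached it. Ryr2, the calcium release channel of the heart, came closest to Ttn in level, at 43.6 TPM in replicate 2, against 64.3 TPM in replicate 1 (−0.73). Neb, the nebulin of skeletal muscle, was low at 0.55 TPM in replicate 2, against 1.10 TPM in replicate 1. Ahnak, Dmd, Macf1, Cmya5, Mycbp2, Huwe1, Syne1, Syne2 and Dst lay between −0.54 and −0.02.

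**Figure D5:**
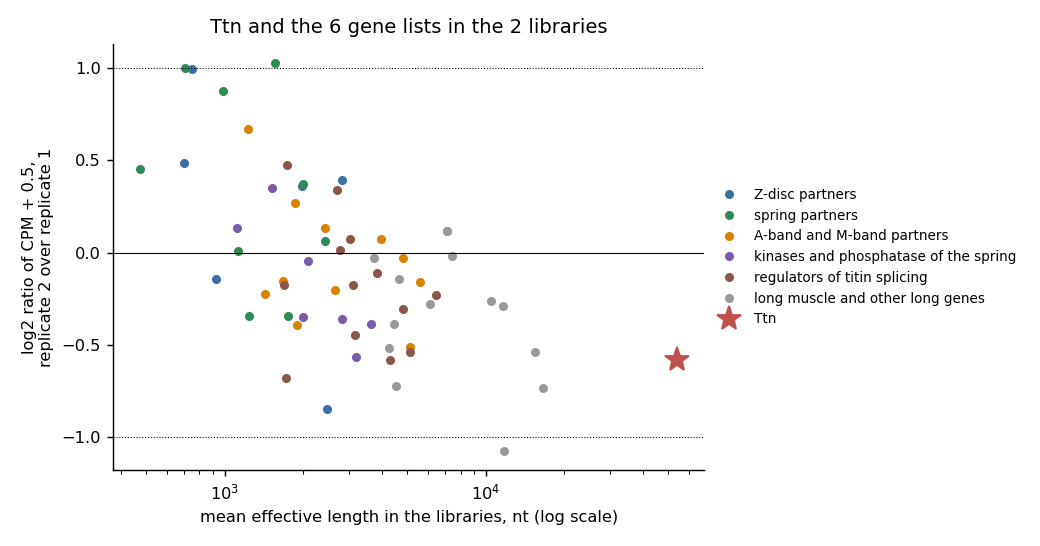
Log2 ratio of CPM + 0.5, replicate 2 over replicate 1, against mean effective length in nucleotides on a log scale, for Ttn (red star, −0.58) and the tested members of the 6 gene lists (coloured points). Dotted lines mark a 2-fold difference; Hspb1, Ankrd1 and Xirp2 reach it, and 12 of the 13 long genes lie below 0.

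The contig list of the same tissue, also pooled and on mm9, gave the strand of transcription without splicing. On the Ttn strand 247 contigs covered 238326 nucleotides of the locus with a mean level of 14.7 weighted by length. On the opposite strand 12 contigs covered 1669 nucleotides with a mean level of 0.688. No source used here gives the scaling of these levels, so they compare the strands of this locus and nothing else.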

How the data were processed

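Heart poly(A)+ RNA was measured in 2 libraries of 1 group, taken from the labels. Per library, the authors deposited gene and transcript tables on mm10 with GENCODE annotation M4, per the accompanying notes; aligner and quantifier are not named there. As deposited by the authors, an expected count is an estimated number of fragments, shared fragments being divided between transcripts, per the file headers. TPM, also deposited, divides it by effective length and gives each library the same sum, and the deposited FPKM scales it by length and depth, per the file headers; FPKM was an alternative only. The deposited percent per transcript is its share of the gene's TPM, per the file headers. The authors also deposited mm9 lists that name no library: junctions, with whole read counts and an undefined fraction from 0 to 1 that was not used, and contigs with an expression signal.

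Here 42462 of 43346 gene identifiers took symbols from GENCODE M21. Expected counts were rounded, scaled with TMM (edgeR 4.0.16, R 4.3.3; factors 1.04 and 0.961 for replicates 2 and 1) and compared as log2 ratios of CPM + 0.5 wherever both libraries together held 20 counts or more. Tested on counts simulated for this comparison over 16145 genes with counting noise alone, 85.5% of 200 genes changed 4-fold and 0% of unchanged genes passed 2-fold. Junctions counted as inside Ttn when both ends lay in the mm9 locus, whose upper bound was moved out by 1 kb to hold the first intron. They were matched to annotated introns by intron and flanking exon length, with 6 ties settled by order. Coordinates were never converted between builds. Shares have exact Clopper-Pearson 95% intervals (scipy 1.17.1), and limits for absent joins are 3 reads. Named were Ttn, its transcripts, the 10 exon-skipping junctions of most reads, the joins in which the leading long transcripts differ, the junction of most reads, the 3 genes above and below Ttn, overlapping genes and the members of 6 lists, of which 2 are counted but not reported here; the joins at exon 191 beyond the most-read one and the middle segment were chosen after their values were seen. Members and lists were chosen with earlier results of these data known. Other scalings (DESeq2 1.42.0 size factors, totals, TPM), filters, limits and left-out replicates were tried. No genome or protein sequence was used.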

Additional observations from a re-analysis of the deposited data

How the results depend on the processing

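With 2 libraries the precision of every level is limited by their number, and the pooled lists give counting error only. No paired analysis was possible because there is only 1 group. Of 62 alternatives over 14 results, 35 left the value within its spread or its count within 1.5 times. Some of these 35 were fixed in advance. With 2 libraries a left-out replicate always lies within the SD, for the Ttn level and for the Ttn-201 and long-transcript shares. The deposited percent per transcript is the same TPM share again. A change of direction was defined only for the log2 ratio of Ttn, and none occurred. Leaving out each replicate in turn gave a Ttn level of 47.5 to 63.4 TPM, a rank of 798 to 1289, a Ttn-201 share of 61.6% to 62.0% and a long-transcript share of 62.0% to 62.5%. The Ttn level was 96.4 TPM with TPM rescaled without mitochondrial genes and spike-ins, and its rank was 31 by expected counts, which grow with length. The log2 ratio of Ttn was −0.47 with total counts, −0.41 with TPM, −0.80 with TPM without mitochondrial genes and −0.59 with TMM factors from all genes of at least 1 count, against −0.58. These scalings also move the median of all tested genes, to 0.09 with totals, 0.12 with TPM and −0.16 with TPM without mitochondrial genes, so that Ttn lay 0.53 to 0.63 below that median throughout. The share of Ttn-201 was 60.9% by posterior-mean TPM and 93.7% by expected counts. The share of long transcripts was 61.4% and 94.5% by the same measures, 62.9% with a length limit of 20000 nucleotides and 0.434% with 90000, which leaves out Ttn-201. At 0.1 TPM 10 transcripts were expressed, and at 5 TPM 2. The locus held 233 junctions of at least 10 reads and 166 of at least 100, and exon-skipping junctions took 0.380% and 0% of their reads, since the rarer junctions that define them fall away. Of the Z-disc partners 1 reached the fold with total counts, 1 with TPM and 2 at a fold of 1.5, where 21.5% of all tested genes did. At that fold 1 A-band or M-band partner, 1 splicing regulator and 3 long genes reached it. With TPM 1 splicing regulator reached 2-fold, and 0 long genes did with TPM or total counts. For the other changes the cause was not tested.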

Other observations

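Of the 196 Ttn junctions that matched no annotated intron, 7 had at least 10 reads, and 5 of these are the unannotated joins of annotated exons described above. The 2 others were the 182-read junction at the intron between exons 26 and 27 of Ttn-201, and a gap of 40 nucleotides with 30 reads at chr2:76818171-76818210 in mm9. Next came a 75647-nucleotide junction with 9 reads, from near the 5′ end into the stretch that Ttn-201 leaves out, at chr2:76736761-76812407. A 468-nucleotide junction with 8 reads, next to the 467-nucleotide intron of most reads, differed from it by 1 nucleotide at its start.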
